A study of Caenorhabditis elegans with 2 samples.

Results

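EFL-1 peaks that lie within introns, away from the starts of protein-coding genes, numbered 559 of the 4534 peaks in the irreproducible discovery rate (IDR) list of this chromatin immunoprecipitation sequencing (ChIP-seq) experiment. A peak was placed by its summit, the base of highest signal. A summit was kept when it lay in an intron of a protein-coding gene, in no exon of such a gene, and over 500 bp from the 5′ end of every protein-coding transcript in the Ensembl annotation of ce11, the C. elegans genome build also named WBcel235. The peaks came from whole L1 larvae, their sex recorded as pooled males and females, of strain MT10430, which carries the lin-35(n745) allele on chromosome I. The antibody was against EFL-1, and 1 group of 2 biological replicates, numbered 2 and 3, was analysed. All of the animals carried the lin-35 allele, and their age beyond the larval stage is recorded as unknown. No other strain, stage or control experiment was used here, so the values describe where EFL-1 signal lay in these animals and compare no conditions.

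EFL-1 is a worm member of the E2F family, transcription factors that bind DNA together with a DP partner, DPL-1 in C. elegans. E2F and DP proteins work with pocket proteins, of which LIN-35, the worm relative of retinoblastoma protein, is the one known in this species, and with the MuvB proteins in the DREAM complex, known for repressing cell cycle and germline genes from their promoters. Introns are transcribed with their host gene and removed from its RNA. In a compact genome they also carry internal promoters of shorter isoforms, enhancers, and whole genes for small RNAs such as tRNAs and snoRNAs. The E2F family is known to favour sites built as a run of T followed by a core of G and C.

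Some of the strongest intronic peaks with an E2F pattern are shown first, because they are places where an intron held both strong EFL-1 signal and the letters of an E2F site. The patterns searched on both strands were TTTCCCGC, TTTCGCGC, TTTGCCGC and TTTGGCGC, called E2F sites from here on. Each line gives 60 bases of the RefSeq ce11 sequence, 5′ to 3′ on the strand that carries the site, with the site in capitals. In smg-3 another site, TTTCGCGC on the minus strand, overlaps the one in capitals and is not marked.
epg-9, intron 2, chrIV:2602045-2602104, plus strand: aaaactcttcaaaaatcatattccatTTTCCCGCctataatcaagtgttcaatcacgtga
ari-1.4, intron 3, chrIV:15526673-15526732, minus strand: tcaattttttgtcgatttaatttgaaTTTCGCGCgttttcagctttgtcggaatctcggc
maph-9, intron 9, chrIV:7159781-7159840, minus strand: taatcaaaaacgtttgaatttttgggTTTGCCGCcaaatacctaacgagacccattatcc
smg-3, intron 8, chrIV:6369680-6369739, plus strand: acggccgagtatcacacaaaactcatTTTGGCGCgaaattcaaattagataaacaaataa
mom-1, intron 7, chrX:6296518-6296577, plus strand: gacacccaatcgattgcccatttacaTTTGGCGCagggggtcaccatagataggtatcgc
F53F1.3, intron 4, chrV:13409259-13409318, minus strand: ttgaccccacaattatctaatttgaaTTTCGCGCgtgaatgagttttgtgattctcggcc

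Alternating runs of G and A were also found at intronic summits: GAGAGAGA lay within 100 bp of 122 of them and an E2F site within 100 bp of 59. With the E2F patterns cut to their last 6 letters the E2F count was 199, so the order of the 2 depends on the pattern used. Some of the strongest peaks with such a run are shown, with every GAGAGAGA in the 60 bases in capitals.
nova-1, intron 1, chrV:18079338-18079397, minus strand: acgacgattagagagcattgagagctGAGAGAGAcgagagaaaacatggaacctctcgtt
pqn-41, intron 14, chrIII:1926545-1926604, minus strand: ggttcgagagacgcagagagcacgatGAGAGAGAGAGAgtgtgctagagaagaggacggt
pqn-41, intron 14, chrIII:1925417-1925476, minus strand: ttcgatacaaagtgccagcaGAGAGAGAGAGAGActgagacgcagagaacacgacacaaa
daf-5, intron 1, chrII:14040513-14040572, minus strand: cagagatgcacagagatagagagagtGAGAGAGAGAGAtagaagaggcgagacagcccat
The 3 strongest intronic peaks of all had neither pattern within 100 bp of the summit. They are printed as 61 bases with the summit base in capitals.
gei-4, intron 1, chrIII:349946-350006, plus strand: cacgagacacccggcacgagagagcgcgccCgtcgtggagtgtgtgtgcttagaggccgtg
Y111B2A.12, intron 4, chrIII:12612624-12612684, plus strand: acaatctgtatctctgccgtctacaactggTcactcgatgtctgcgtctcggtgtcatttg
zfp-1, intron 9, chrIII:8802132-8802192, plus strand: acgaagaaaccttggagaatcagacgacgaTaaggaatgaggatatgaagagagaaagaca

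Intronic peaks made up 12.3% of the IDR list (95% Wilson interval 11.4 to 13.3). The sequence in which such a peak could be called, intron over 500 bp from coding 5′ ends and outside coding-gene exons, covered 26.3 Mb, or 26.2% of the 6 nuclear chromosomes. This gave 21.3 intronic peaks per Mb, against 115.9 per Mb within 500 bp of a coding 5′ end (2681 peaks), 41.1 per Mb in intergenic sequence over 500 bp away (1229 peaks) and 3.06 per Mb in exons over 500 bp away (64 peaks). 1 further peak lay in a gene's span but in no intron of a coding transcript. Classifying the strongest 4534 regions of each replicate alone gave 560 intronic regions, 12.4%, in replicate 2 and 555, 12.2%, in replicate 3. Intervals of this kind cover the counting of peaks only, since all peaks come from the same libraries, and no p-value is given for any share.

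Intronic peaks were weaker than promoter peaks. A peak's signal value is the score that the peak caller gave it. Over the intronic peaks it ranged from 46.5 to 2262 in the joint list, with a median of 91.2 and quartiles of 62.8 and 165.2. Ranking all IDR peaks by signal, with 100 as the strongest, put the median intronic peak at percentile 35.9 (quartiles 17.3 and 59.95), against 57.8 for peaks near a 5′ end, 42.6 for intergenic peaks and 31.7 for exonic peaks. In the strongest 25% of the list were 75 intronic peaks, 13.4% of the class, against 31.0% of peaks near a 5′ end. That difference was -17.6 percentage points (95% Newcombe interval -20.7 to -14.1). The difference from intergenic peaks, 18.1% of which were in that top 25%, was smaller, -4.65 points (-8.07 to -0.95).

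The IDR list held exactly the 4534 strongest of the 21875 joint regions of both replicates, so presence in it was a matter of signal rank. The joint regions were deposited as peaks and background together, as input for IDR. Of the 21875, 6596 had a −log10 q-value over 2, so many of the regions that did not reach the list may be background. Of all joint regions, 20.7% reached the list. Of the 5090 joint regions in these introns, 559 did, or 10.98% (10.15 to 11.9). The share was 34.9% near 5′ ends, 19.5% in intergenic sequence and 2.28% in exons. The intronic share differed by -23.95 points from that near 5′ ends (-25.3 to -22.6) and by -8.54 points from the intergenic share (-9.84 to -7.24). Within each replicate's own list the order was the same: 9.20% of intronic regions were among the strongest 4534 in replicate 2 and 8.79% in replicate 3, against 31.3% and 30.3% of regions near 5′ ends.

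**Figure D1:**
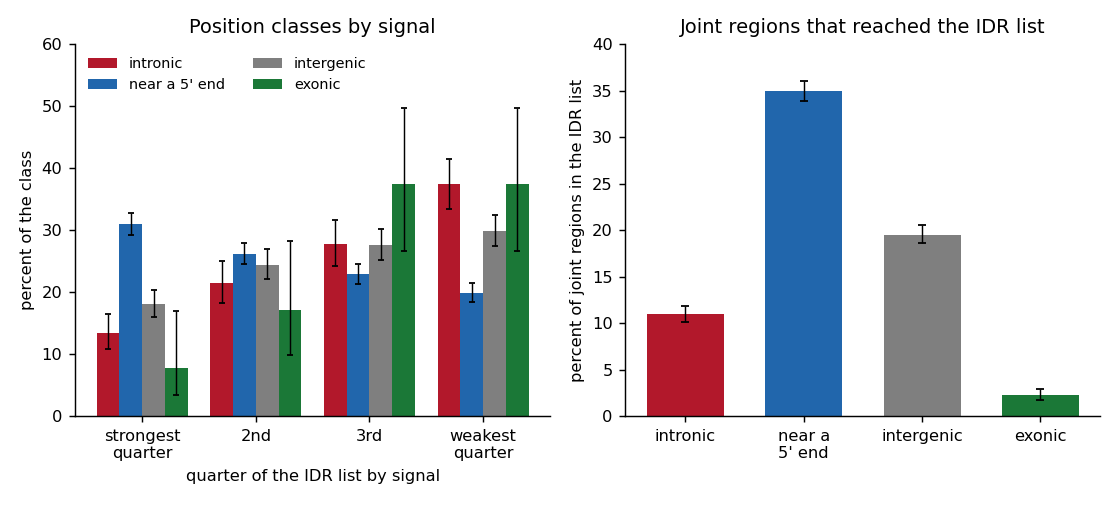
Share of each position class in the IDR list cut into 4 equal parts by signal (left) and percent of the joint regions of each class that reached the IDR list (right); bars show percent and error bars 95% Wilson intervals. Intronic peaks (red, 559) were most frequent in the weakest part, with 37.4% there and 13.4% in the strongest, while peaks near a 5′ end (blue, 2681) run the other way.

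Both replicates held signal at nearly every intronic peak. The IDR list was made from these same 2 replicates, so such overlap was largely set by that choice. The shares below describe the peaks and are no independent check of them. A region overlapped 559 of the peaks in replicate 2 and 558 in replicate 3, where an overlap of 1 bp sufficed and the strongest overlapping region was taken. Signal values in replicate 2 ran from 15.5 to 1182 with a median of 57.3, and in replicate 3 from 6.08 to 1094 with a median of 36.03. Replicate 2 gave the higher value at 503 peaks, and the 2 values summed nearly to the joint signal (median ratio 0.996), so values of the lists are compared by rank. Among the strongest 4534 regions of both replicates were 453 intronic peaks, 81.0% (77.6 to 84.1), against 89.8% of peaks near a 5′ end (difference -8.74 points, -12.4 to -5.48) and 83.5% of intergenic peaks (-2.45, -6.43 to 1.29). A further 60 were among the strongest in replicate 2 alone, 41 in replicate 3 alone and 5 in neither. The rank correlation between replicates over intronic peaks was 0.83 (Spearman, 558 peaks of the same libraries), given as a description. Only 13 intronic peaks overlapped another IDR peak, 3 of them with an identical interval and a different summit, so a few share one replicate value.

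**Figure D2:**
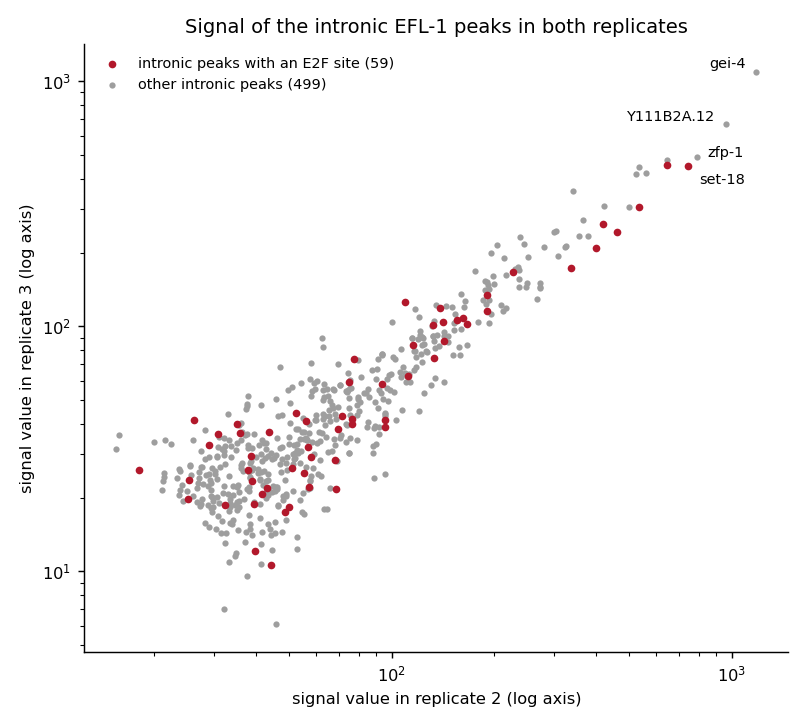
Signal value of each of 558 intronic EFL-1 peaks in replicate 2 (x, log axis) and replicate 3 (y, log axis); each point is a peak, red where an E2F site lay within 100 bp of the summit. gei-4, at 1182 and 1094, stands above the rest, and the points spread more widely at low signal.

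The strongest intronic peak lay in the first of 8 introns of gei-4, whose product was named for interacting with GEX-3, an actin regulator. Its signal was 1182 in replicate 2, where it ranked 54, and 1094 in replicate 3, where it ranked 25. It was also the widest of the class, at 880 bp (chrIII:349397-350276), and lay 1543 bp upstream of an internal 5′ end of gei-4. The next was in intron 4 of Y111B2A.12, at 963.5 in replicate 2 and 666.4 in replicate 3. Both were thus in the strongest 100 regions of each replicate, and no other intronic peak was among the strongest 100 of the joint list.

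The third strongest intronic peak was in zfp-1. This gene, the worm relative of the leukaemia gene AF10 and a chromatin protein, held that peak in intron 9 at 790.0 in replicate 2 and 491.7 in replicate 3, and another in intron 4 at 521.6 and 418.1. set-18, on chromosome I, encodes a SET-domain protein, the domain of histone methyltransferases; its peak in intron 3 had an E2F site, at 744.2 and 450.3. It was the strongest intronic peak with such a site. The remaining members of the strongest 10 were in F56D5.6 (646.4 and 478.9), epg-9 (645.3 and 456.3), nova-1 (561.0 and 421.1), pqn-41 (533.4 and 446.9) and ari-1.4 (535.1 and 306.3), again with replicate 2 first. epg-9 encodes an autophagy protein, nova-1 a relative of the neuronal splicing factor Nova, pqn-41 a glutamine-rich protein known for its part in linker cell death, and ari-1.4 a member of the Ariadne family of ubiquitin ligases. On the chromosomes not yet covered, the strongest were mom-1 on X (399.3 and 209.2), the Porcupine relative needed for Wnt secretion, and mnk-1 on II (379.1 and 234.5), a MAP kinase-interacting kinase. The lowest rank of any of them in either replicate was 539, for mom-1 in replicate 3.

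Most host genes held a single peak. The 559 peaks lay in 442 of the 16694 protein-coding genes that had any such intron sequence, 2.65% of them, which is also the background for the gene lists described further on. There were 356 genes with 1 peak, 66 with 2, 11 with 3, 8 with 4 and 1 with 10, and 4 summits lay in introns of 2 genes at once. Host share followed the amount of intron available: of the genes with least such sequence, the lowest 25%, 5 were hosts (0.119%), and of the 25% with most, 336 were (8.05%).

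The gene with 10 intronic peaks was ppfr-1, which encodes a regulatory subunit of protein phosphatase 4. All 10 were on chromosome I in introns 4 and 5, over 10563 bp, and none was in the strongest 25% of the IDR list: joint ranks ran from 1681 to 4248. Values ran from 25.5 to 118.0 in replicate 2 (median 84.2) and from 25.4 to 89.2 in replicate 3 (median 72.5). By these values 9 of the 10 were among the strongest 4534 regions of both. None had an E2F site or a GAGAGAGA run at the summit. Genes annotated as ncRNA, a non-coding class apart from tRNA and snoRNA genes, lay within 200 bp of most of these summits. Over all intronic peaks, 122 (21.8%) had such a gene that close, against 8.92% of peaks near a 5′ end and 16.9% of intergenic peaks. Of the 10, 6 overlapped another, so that several share a replicate value.

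The other hosts named for their number of peaks varied widely in signal. zfp-1 held 4, from 188.1 to 790.0 in replicate 2 and from 140.9 to 491.7 in replicate 3, and pqn-41 held 4 within a single intron of 10372 bp, from 196.4 to 533.4 and from 199.2 to 446.9. All 8 were among the strongest 4534 regions of both replicates. daf-5, the Sno/Ski relative of the dauer TGF-β pathway, held 4 in its 14446 bp first intron, from 35.5 to 307.9 in replicate 2 and from 14.7 to 193.6 in replicate 3. hlh-30, the worm TFEB that controls autophagy and lysosome genes, held 4, from 38.03 to 133.1 and from 17.06 to 101.2, of which 2 had an E2F site. aakg-1, an AMP-activated kinase gamma subunit, held 4 across 18674 bp, from 69.8 to 123.8 in replicate 2 and from 61.07 to 90.0 in replicate 3. The lowest medians of these hosts were those of ncl-1, a regulator of nucleolar size, and fkh-7, a forkhead factor. ncl-1 held 4 peaks with a median of 37.3 in replicate 2 and 18.95 in replicate 3, and fkh-7 held 4 with medians of 60.9 and 35.07. Of the 4 in Y111B2A.12, 3 had an E2F site, all of them the weaker ones. let-526, an ARID subunit of the SWI/SNF remodeller, held 3.

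The gene model mattered at a few of these loci. Under the RefSeq annotation of the same build, 529 of the 559 summits (94.6%) met the same rule, 24 were intergenic, 2 were near a 5′ end and 4 were in a gene span but in no intron. All 4 daf-5 peaks were among the 24, and 2 of the 4 zfp-1 peaks were among those in no intron.

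Intronic peaks became sparser with distance from coding starts, less steeply than intergenic ones. Per Mb of sequence at the same distance there were 25.17 intronic peaks at 500 to 1000 bp, 23.1 at 1000 to 2000 bp, 17.7 at 2000 to 5000 bp and 17.01 beyond 5000 bp. The intergenic figures were 65.1, 48.8, 32.98 and 22.3. The median distance was 1519 bp, and the farthest summit was 20226 bp from any coding start. The nearest start belonged to the host for 464 peaks (83.01%) and to another gene for 95 (16.99%). It lay downstream of the summit, within the host, for 172 peaks (30.8%), and 303 (54.2%) had some downstream start of the host.

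First introns held 148 of the peaks, 26.5% (22.99 to 30.3), and 17.5% of the sequence, with introns numbered along the longest transcript. Density was 31.7 peaks per Mb in first introns, 24.1 in second ones, between 16.5 and 21.1 in the third to the fifth, 17.04 in introns 6 to 9 and 14.6 in those numbered 10 or higher. Density was also higher in longer introns. Introns up to 1000 bp held 14.6 peaks per Mb and those of 1000 to 2000 bp 13.1, against 30.6 at 2000 to 5000 bp, 39.6 at 5000 to 10000 bp and 43.1 above 10000 bp. Within introns over 2000 bp, first introns had 40.2 peaks per Mb and later ones 33.02. Within shorter introns the values were 16.6 and 13.9. The part of length in the preference for first introns was not tested further. Summits lay at 49.7% of the way along the intron in the median, close to the middle.

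**Figure D3:**
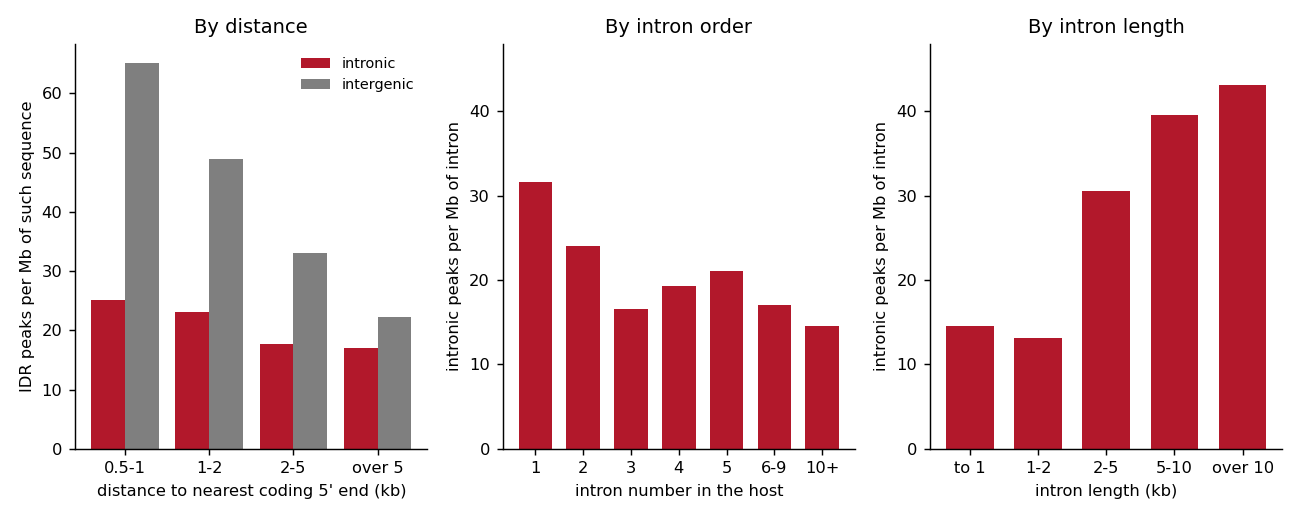
EFL-1 IDR peaks per Mb of sequence by distance to the nearest coding 5′ end (left, intronic red and intergenic grey), and intronic peaks per Mb by intron number (middle) and intron length (right). Bars are counts divided by sequence that met the rule; the density is highest in first introns (31.7) and in introns above 10000 bp (43.1).

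Of the patterns searched, a run of alternating G and A had the highest ratio of its share at intronic summits to its share in flanking windows. GAGAGAGA, searched on both strands within 100 bp of the summit, was present at 122 intronic peaks, 21.8% (18.6 to 25.4). Windows of the same 201 bp placed 500 bp to each side held it in 1.88%, a difference of 19.95 points (16.6 to 23.6), and 100966 windows tiled over all such intron sequence held it in 1.36%. Among peaks near a 5′ end it was present at 7.65%, so that the intronic share was higher by 14.2 points (10.8 to 17.9). Intergenic peaks had it at 22.1%, and their difference from the intronic ones was -0.23 points (-4.25 to 4.02). The share was 21.8% in the intronic regions of replicate 2 alone and 21.3% in those of replicate 3 alone. Signal medians of the 122 were close to those of the class: they were 56.8 in replicate 2 and 35.2 in replicate 3 for these, against 57.3 and 36.03 over all 559. Of those with matches on 1 strand only, 35 had GAGAGAGA on the host's coding strand and 78 had it on the other. No such split is given for intron or flanking windows, so these counts have no background beside them.

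E2F sites were present at 59 intronic peaks, 10.6% (8.27 to 13.4), against 4.83% of the flanking windows (5.73 points higher, 3.04 to 8.76) and 4.66% of all intron windows. Each of the 4 patterns was more frequent at summits than in intron windows: TTTCCCGC at 3.94% and 1.58%, TTTCGCGC at 2.86% and 1.07%, TTTGCCGC at 2.15% and 1.37%, TTTGGCGC at 2.50% and 0.885%. Peaks near a 5′ end had an E2F site at 10.15%, and the difference of 0.41 points had an interval from -2.17 to 3.43. Intronic peaks with a site had a median signal of 69.6 in replicate 2 and 41.1 in replicate 3, against 57.3 and 36.03 over all intronic peaks. With the IDR list cut into 4 equal parts, the share was 16% of 75, 11.7% of 120, 9.68% of 155 and 8.61% of 209 intronic peaks, from the strongest part to the weakest, with intervals that overlap. Of the 59, 9 were in a first intron (15.3%), against 27.8% of the peaks without a site. The median peak with a site thus stood at percentile 43.3 and the median peak without one at 35.1.

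4 other patterns were counted in the same windows. The E box CACGTG, the site of Myc, Mondo and TFEB-like factors, was present at 9.30% of intronic peaks, 3.94% of their flanks and 2.67% of intron windows, and at 5.19% of peaks near a 5′ end (4.12 points higher, 1.80 to 6.92). Intergenic peaks had it at 7.24%, from which the intronic share differed by 2.06 points (-0.60 to 5.06). TTTGAA, the cell cycle homology region bound by the MuvB protein LIN-54, was present at 24.5% of intronic peaks and 48.3% of flanks. Peaks near a 5′ end had TTTGAA at 41.2% and intergenic peaks at 30.8%. A variant of it, TTCGAA, was present at 11.5% and 13.8% of flanks. TGATAA, which the gut and epidermal zinc finger regulators bind, was present at 8.77% of intronic peaks and 15.7% of flanks. Base composition moved with these: the median G plus C content was 46.3% in the windows of intronic peaks and 32.3% in intron windows. It was 40.3% at peaks near a 5′ end and 45.3% at intergenic peaks. TTTGAA and TGATAA are rich in A and T, and the part of base composition in any of these shares was not tested. A match is a run of letters and does not show a bound factor.

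The shares of peaks with GAGAGAGA or with a small RNA gene differed by intron length, while that with an E2F site differed little. In introns over 2000 bp, 31.8% of 302 peaks had GAGAGAGA, against 10.1% of 257 in shorter introns (21.7 points higher, 15.1 to 27.95). The intron windows themselves moved the same way, 2.51% and 0.607%, at lower levels but by a larger ratio. Genes for tRNA, snoRNA, snRNA or miRNA showed the reverse: 1.66% of peaks in introns over 2000 bp had one within 200 bp, against 36.6% in shorter introns (-34.9 points, -41.04 to -28.9), whereas the share of intron bases that close to one was 0.562% and 0.670%. In introns up to 1000 bp the share was 43.6%, 82 of 188 peaks. E2F sites were at 9.93% of peaks in the longer introns and 11.3% in the shorter (-1.35 points, -6.66 to 3.76).

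**Figure D4:**
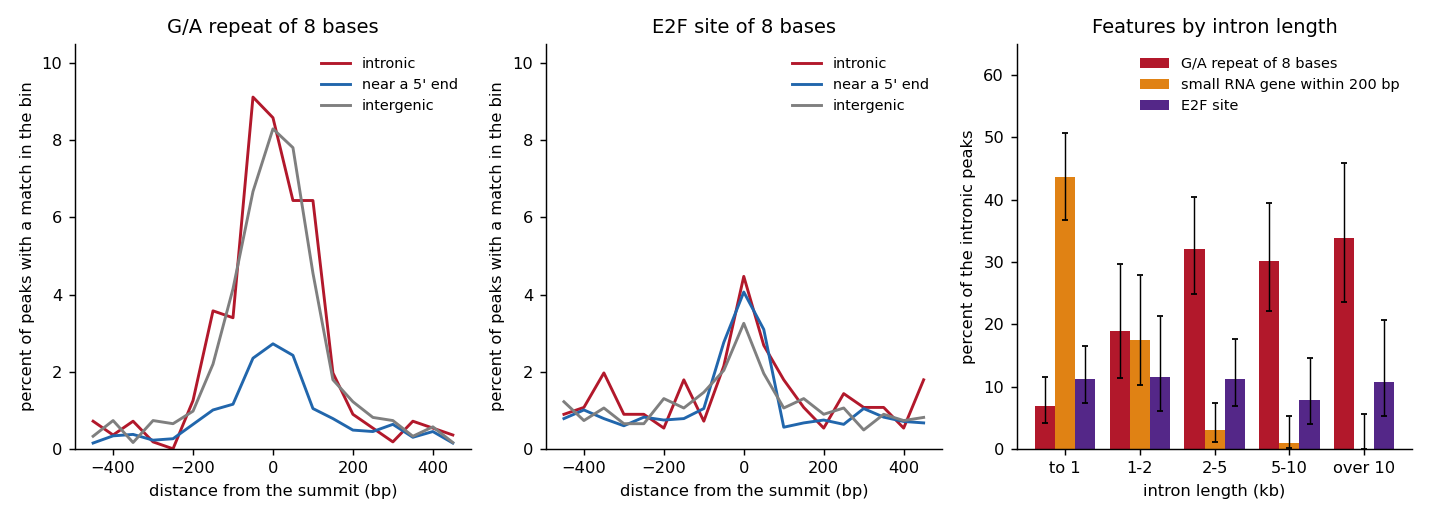
Percent of peaks with a match to the 8-base G/A run (left) and to an E2F site (middle) in 50 bp bins around the summit, for intronic (red), near 5′ end (blue) and intergenic (grey) peaks, and share of intronic peaks with each feature by intron length with 95% Wilson intervals (right). The G/A run reaches 9.12% and the E2F site 4.47% of intronic peaks near the summit, and small RNA genes accompany 43.6% of the peaks in introns up to 1 kb.

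Small RNA genes lay within 200 bp of 99 of the 559 intronic summits (17.7%, 14.8 to 21.1), against 2.65% of peaks near a coding 5′ end and 8.71% of intergenic peaks. A tRNA gene lay within 200 bp of 58 summits, and 34 of those summits were inside the gene. A snoRNA gene, for RNAs that guide rRNA modification, lay that close to 30, with 2 summits inside it and a median distance of 37 bp. Sequence within 200 bp of a tRNA gene was 0.281% of the intron searched and held 786.6 peaks per Mb; elsewhere there were 19.1 per Mb. Near snoRNA genes the figure was 628.4. The 99 peaks had signal medians of 57.5 in replicate 2 and 38.7 in replicate 3, close to those of all intronic peaks, and the share was 16.96% and 16.6% in the intronic regions of replicate 2 and replicate 3 alone. Among them was the peak in intron 2 of cye-1, the cyclin E gene, at 112.5 in replicate 2 and 64.04 in replicate 3, beside a tRNA gene. The peak in intron 13 of mix-1, a condensin subunit, at 119.3 and 88.8, was beside a snoRNA gene. Of the 559, 264 (47.2%) had none of GAGAGAGA, an E2F site, an E box or a small RNA gene, and these stood at a median percentile of 31.4, against 38.7 for the other 295.

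Genes were also counted by function, in lists that are described by their counts only. Over all genes there were 21.1 peaks per Mb of such intron, counted gene by gene. The list of chromatin genes had 12 peaks in 6 of 52 genes (11.5%), 78.9 per Mb, with a median at percentile 77.1 against 35.9 for all intronic peaks. 4 of these were the zfp-1 peaks, at joint ranks 128 to 954, and without zfp-1 the list had 8 peaks, 54.4 per Mb. Those 8 had joint ranks of 283, 548, 1127, 3265, 3299, 3308, 3702 and 4031. The median rank over all intronic peaks was 2905, so the high median percentile of the list rested on the zfp-1 peaks. pbrm-1, a SWI/SNF subunit with bromodomains, had a peak in intron 9 at 499.2 in replicate 2 and 305.6 in replicate 3, and let-526 had 3 at 51.8 to 281.5 and 28.9 to 211.4. The list also held weak peaks in mes-2, dot-1.1 and egl-27, from 26.2 to 42.8 in replicate 2 and from 14.9 to 41.3 in replicate 3. Peaks in the chromatin list thus ran from rank 128 to rank 4031 of the IDR list.

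Named transcription factors had 23 peaks in 16 of 136 genes (11.8%), 45.4 per Mb. Their strongest was in daf-16, the FOXO factor downstream of insulin signalling, at 252.6 in replicate 2 and 191.9 in replicate 3, and the next in mef-2, a MADS-box factor, at 213.4 and 189.1. Others included skn-1, lag-1, daf-12, sma-9 and lin-14. Of the 23, 7 had an E2F site, against 59 of all 559. Signalling genes had 15 peaks in 10 of 97 genes, 28.98 per Mb, led by let-363, the worm TOR kinase, at 273.4 and 145.1, and by daf-2, the insulin receptor, at 248.7 and 145.3. RNA regulators had 5 in 5 of 69 genes, 29.2 per Mb, led by larp-1 at 199.6 and 149.1 and ain-2, a partner of the microRNA Argonautes, at 67.2 and 55.5.

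Cell cycle, replication and mitosis genes, the best known E2F targets, had 3 intronic peaks in 3 of 70 genes (4.29%, against 2.65% of all genes), 29.1 per Mb. They were in mix-1, cye-1 and cdk-2, none with an E2F site. The list of DREAM and synMuv B genes had 0 in 25 genes, which allows a share of up to 12% by the limit of 3 counts of the total and has a Wilson upper limit of 13.3%. The ribosome, proteasome and nuclear pore list had 0 in 80 genes, for which the same limits were 3.75% and 4.58%. The median gene of the DREAM list had 1030 bp of such intron and that of the ribosome, proteasome and nuclear pore list 161.5 bp, against 647 bp over all genes. Of the tissue lists, epidermis genes were above the density of all genes and the others below it, while each had a host share above the 2.65% of all genes. The densities were 25.8 per Mb for epidermis, junction and cytoskeleton genes (vab-10, the spectraplakin, at 191.3 in replicate 2 and 115.3 in replicate 3 with an E2F site; frl-1, a formin, at 95.95 and 44.1), 19.5 for neuronal genes (unc-119 at 142.9 and 95.04; unc-41 at 57.5 and 21.95), 17.9 for muscle genes (lev-11, a tropomyosin, at 49.8 and 32.97; dys-1, the dystrophin, at 49.03 and 27.7) and 10.3 for axon guidance and adhesion genes (hmr-1, the cadherin, at 122.8 and 84.2). The host shares were 8.11% for epidermis, 8.40% for neuronal, 5.08% for muscle and 5.56% for axon guidance genes. In introns over 2000 bp alone, chromatin genes had 226.1 peaks per Mb, but this was 10 peaks on 0.0442 Mb. The 4 peaks of zfp-1 and the 3 of let-526 were among the 10. Transcription factors had 72.4 per Mb on 20 peaks, signalling genes 49.2 on 14 and epidermis genes 45.5 on 7. RNA regulators had 43.1 and muscle genes 39.04, on 3 peaks each. Neuronal genes had 14.9 on 4 peaks and axon guidance genes 11.4 on 3, against 35.5 for all genes in introns of this length. Cell cycle genes had 0 peaks there, but on only 0.0261 Mb, so little can be read from that count.

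**Figure D5:**
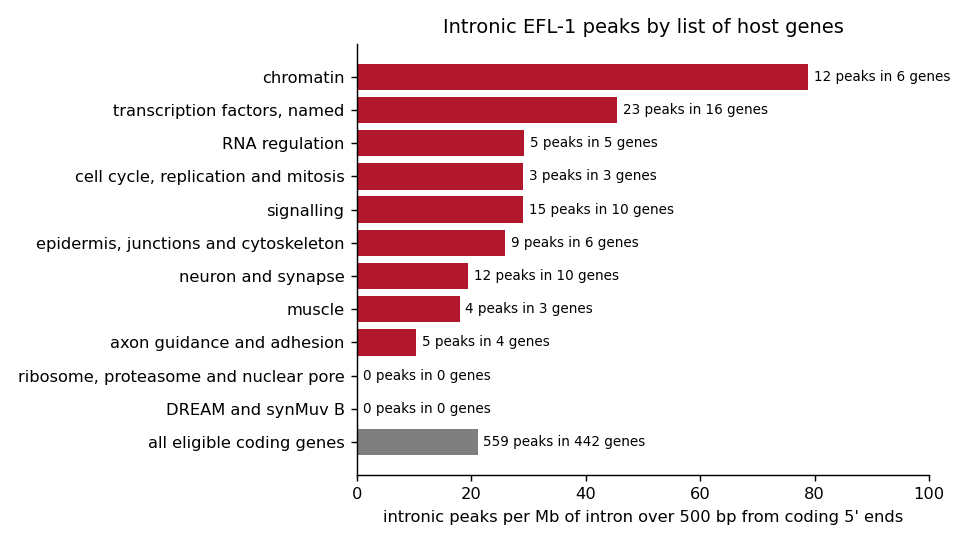
Intronic EFL-1 peaks per Mb of intron over 500 bp from coding 5′ ends for each list of genes (red) and for all genes with such intron (grey, 21.1 per Mb); numbers beside the bars count peaks and host genes. The chromatin list stands highest at 78.9 per Mb on 12 peaks, and both the DREAM list and the ribosome, proteasome and nuclear pore list are at 0.

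Host genes also had promoter peaks more often than other genes. Of the 442 hosts, 121 (27.4%) had an IDR peak within 500 bp of one of their own 5′ ends, against 16.2% of the 16252 other genes with such intron (11.2 points higher, 7.18 to 15.5). Among the 25% of genes with most intron the shares were 27.1% of 336 hosts and 19.1% of 3837 others (7.98 points, 3.33 to 13.1). The other 321 hosts had intronic EFL-1 signal and no promoter peak in this list, including Y111B2A.12, set-18, let-526, daf-2 and cye-1.

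By chromosome, density was highest on III, with 139 peaks and 31.8 per Mb of such intron, and lowest on X, with 55 and 12.6 per Mb, and on V, with 65 and 14.4. Chromosomes I, II and IV had 21.5, 22.8 and 24.9 per Mb. In the strongest 4534 regions of each replicate alone the densities were 31.6 and 29.5 per Mb on III and 11.6 and 12.55 on X, replicate 2 first. The whole IDR list was also uneven, with 896 peaks on III, 667 on V and 522 on X. Intronic peaks were 15.51% of the IDR peaks on III (13.29 to 18.03), 10.54% on X (8.185 to 13.46) and 9.745% on V (7.72 to 12.23). The shares on I, II and IV were 11.73%, 10.88% and 14.19%. The contrast between III and X was thus narrower by share than by density.

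The 500 bp limit cut through a continuous range. Just inside it were the peaks in glrx-3 at 501 bp, hira-1 at 505 bp and eif-3.I at 507 bp from a coding start, and just outside were intronic summits in zfp-1 at 492 bp, snx-13 at 490 bp and nac-3 at 489 bp. In all, 362 IDR summits in introns lay within the limit, at a median signal percentile of 43.6.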

How the data were processed

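The authors deposited, per the file headers and labels, lists of regions in narrowPeak form on ce11. These were for each replicate, for both replicates jointly, labelled as peaks and background, and for the IDR-thresholded joint list. The deposited signal value of each region is the peak caller's own signal score. The −log10 q-value is the authors' and took a single value in the IDR list, so peaks were ranked by signal. Read depth is unknown. The authors' choice of aligner, caller and IDR threshold is not given in the sources used here, and lists on ce10 were not used. The joint list held 21875 regions, replicate 2 held 25572 and replicate 3 held 27203.

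Summits were placed on Ensembl release 115 with Python 3.11.15, pandas 2.3.3 and numpy 2.4.6. Introns were numbered along the longest-spanning coding transcript. Shares have 95% Wilson intervals and differences Newcombe intervals (statsmodels 0.14.6). Patterns were searched in 201 bp windows of the RefSeq ce11 sequence, and the scripts were tested on simulated data. Differences in position and sequence are described without p-values, because 1 group of 2 replicates gives no comparison of samples. Genes were named by rule: the 10 strongest peaks, the strongest of each chromosome, the first 10 hosts by number of peaks, the 2 strongest of each of 11 gene lists, the 5 strongest with an E2F site and the 3 nearest the 500 bp limit on each side; other genes of the lists were named after their values were seen. The peaks and lists were chosen with earlier results of these data known, and 10 list symbols matched no gene. The alternatives were other distance limits, exons of any gene, interval middles, RefSeq, each replicate alone, the stronger 50% of the list, another intron numbering, and other windows and patterns.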

Additional observations from a re-analysis of the deposited data

How the results depend on the processing

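Each of the 6 main results was recomputed under alternatives, 48 values in all. A share counted as moved when it left its own 95% interval, and the median percentile when it left its quartiles; 37 values did not move and 11 did. The share of IDR peaks that were intronic, 12.3%, was 14.3% over 300 bp from 5′ ends, 8.65% over 1000 bp, 10.45% with exons of any gene removed and 8.602% in the stronger 50% of the list. Removing exons of any gene also gave 9.85% for joint regions that reached the list and 2.28% for host genes. It took out 85 summits in exons of non-coding genes or pseudogenes, whereas 34 of the 559 summits lay inside a tRNA gene. The stronger 50% of the list gave 1.0% for host genes, on fewer peaks, and 31.3% for first introns. Numbering by any coding transcript gave 37.9% for first introns. The E2F share was 7.16% within 50 bp and 35.6% with six-letter cores; for the other moves the cause was not tested. Without replicate 2 or without replicate 3, ranges were 12.24 to 12.35% for the intronic share, 35.45 to 36.87 for the median percentile, 26.25 to 26.31% for first introns, 10.27 to 10.54% for E2F sites and 2.642 to 2.654% for hosts. No paired analysis was possible because there was 1 group only. Depth is unknown, so no detection limit can be given for weak intronic regions. Peaks are not independent samples.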

Other observations

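The 4531 joint regions in the same introns that did not reach the IDR list differed in sequence from the 559 intronic peaks that did. The joint regions include background by design, and 432 of the 4531 (9.53%) had a −log10 q-value over 2. The contrasts below are thus not between strong and weak EFL-1 sites alone. GAGAGAGA was present at 21.8% of the peaks and 5.16% of the weaker regions (16.7 points higher, 95% Newcombe interval 13.4 to 20.3). E2F sites were present at 10.6% and 6.09% (4.46 points, 2.07 to 7.36), and a tRNA, snoRNA, snRNA or miRNA gene lay within 200 bp of 17.7% and 2.14% (15.6 points, 12.6 to 18.97). The other way round, TTTGAA was present at 24.5% of the peaks and 46.99% of the weaker regions (-22.5 points, -26.2 to -18.5) and TGATAA at 8.77% and 17.2% (-8.47 points, -10.8 to -5.63). The median G plus C content was 46.3% in the peaks and 36.8% in the weaker regions, and its part in any of these differences was not tested. Of the 442 host genes, 259 also held a weaker region, out of 2659 genes with such a region.

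Several of the strongest intronic E2F sites had the cell cycle homology letters TTTGAA directly before them, a pattern chosen after the sequences were seen. It was present at 6 of the 559 intronic peaks (1.07%, 95% Wilson interval 0.493 to 2.32), against 0.187% of peaks near a 5′ end, 0.407% of intergenic peaks and 0.504% of intron windows. The 6 were in set-18, ari-1.4, smg-3, F53F1.3, gly-9 and brap-2, and the first 4 of these had joint ranks from 142 to 528. In smg-3 the letters stand before the minus-strand site, not before the site printed in capitals. Their signal ran from 51.1 to 744.2 in replicate 2 and from 26.3 to 450.3 in replicate 3. Each window was marked as repeat or low complexity in the RefSeq sequence over 59.7% to 90.6% of its length.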
